A study of Homo sapiens with 3 samples.

Results

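Heat shock proteins and their DNAJ co-chaperones were compared between RNA that came down with the Flag-tagged RNA-binding protein MEX3A and RNA that came down with IgG. The members were the protein-coding genes of both tables whose symbols begin with DNAJA, DNAJB or DNAJC, HSPA, HSPB, HSPD, HSPE, HSPH or HSP90, which gave 72 of 57820 genes. The rule uses symbols and no measured value, though it was set with earlier results of these data known. HSPBP1, HSPBAP1 and HSPB11 met the rule by their letters alone and do not encode heat shock proteins. These 3 of the 72 are counted among the members, and the main counts are also given without them. Both precipitates came from formaldehyde-treated ACHN cells, a renal cell carcinoma line established from a human tumour, that carried MEX3A-Flag stably, so the IgG control carried the same transgene. There was 1 library for each antibody, of 5498124 counts for Flag and 3412864 for IgG, and the input sample was not analysed here. No promoter or clone of the transgene is given in the labels. No difference has a replicate check, and no p-value was computed.

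Chaperones hold unfolded proteins until they fold. HSP70 proteins bind and release clients in a cycle driven by ATP, DNAJ proteins deliver the clients and stimulate the ATPase through their J-domain, and HSP110 proteins such as HSPH1 exchange the nucleotide. HSP90 acts later, on kinases and receptors, and small heat shock proteins hold clients without ATP. Heat and other proteotoxic stress induce some of these genes through the transcription factor HSF1, while others are expressed constitutively, and stress in the endoplasmic reticulum (ER) induces another set.

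Heat shock elements, the binding sites of HSF1, are repeats of GAA in alternating orientation. They are shown because the division into stress-inducible and constitutive genes was taken from general knowledge of the genes, with earlier results of these libraries known. The motif of 3 units, GAANNTTCNNGAA or its reverse complement TTCNNGAANNTTC, was searched on both strands in the RefSeq promoters of GRCh38.p14, each of 250 bases before and 50 bases after a start site. Of the members, 65 had an entry, several with more than 1 start site. The motif was in 172 of all 35116 promoters (0.49%) and in the promoters of 7 members, of which HSP90AA1, HSPD1, HSPA6 and DNAJA1 were classed as stress-inducible and HSP90AB1, HSPA8 and DNAJB6 as constitutive. The motif of 3 units therefore did not divide the members as the classes did. It had no match in the promoters searched for the stress-inducible genes HSPA1A, HSPA1B, DNAJB1, HSPB1, HSPB8, HSPE1 and HSPH1. The matches below are given on the strand of the gene, with the motif in capitals.
HSP90AA1, chr14:102087114-102087138, minus strand: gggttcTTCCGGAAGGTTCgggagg
HSP90AB1, chr6:44247772-44247796, plus strand: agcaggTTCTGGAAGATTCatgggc
HSP90AB1, chr6:44247825-44247849, plus strand: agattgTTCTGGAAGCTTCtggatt
HSPA8, chr11:123062348-123062372, minus strand: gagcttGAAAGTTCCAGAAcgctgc
HSPA8, chr11:123062173-123062197, minus strand: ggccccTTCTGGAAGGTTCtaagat
HSPD1, chr2:197500062-197500090, minus strand: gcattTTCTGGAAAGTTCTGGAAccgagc
HSPA6, chr1:161524460-161524484, plus strand: gaaaggTTCGCGAAAGTTCgcggcg
DNAJA1, chr9:33025270-33025294, plus strand: cgggcgGAACTTTCCAGAAcgctcg
DNAJB6, chr7:157336867-157336891, plus strand: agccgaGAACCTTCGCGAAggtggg
HSP90AA1 and HSP90AB1, which encode the inducible and the constitutive cytosolic HSP90, thus both held the motif, and HSP90AB1 held it at 2 places. In HSPD1 a pair of matches overlapped. The shorter motif of 2 units, GAANNTTC or TTCNNGAA, of which the longer one consists, was in 13.5% of all promoters and in at least 1 promoter of 9 of 11 stress-inducible, 4 of 13 constitutive and 0 of 7 ER stress-inducible genes with an entry. The files' own coordinates are of another build, and no peak or promoter signal was measured here.

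Among renal epithelial markers, PAX8, PAX2, LHX1, KRT8, KRT18 and VIM were detected in both and CDH6 was at 0. Among markers of other cells, PTPRC, CD3E and ALB were at 0, GFAP had 7 IgG and 17 Flag counts, and COL1A1 had 637 and 875. RNAs encoded by the mitochondrial genome made up 33% of Flag and 8.93% of IgG counts. They lower every other gene's share of the Flag library. Leaving out both these RNAs and the 10 most abundant genes of each library from the totals nevertheless lowered the ratios, that of HSPD1 from 4.21 to 3.35. The ratios with total counts below thus also depend on other abundant RNAs. The part of either group in these ratios was not tested beyond the other scalings.

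A gene entered with at least 20 counts over both libraries. The ratio of Flag CPM (counts scaled to a common library total) to IgG CPM was given with an exact 95% Clopper-Pearson interval, which covers counting error only, since amplified reads were not counted by molecule. A gene was called enriched where the interval lay wholly above 2 and depleted where it lay wholly below 0.5. Of the 72 members, 50 entered, 12 were detected with fewer counts and 10 had 0 counts in both libraries. Those at 0 were DNAJB7, DNAJB8, DNAJB13, DNAJC15, HSPA12B, HSPB2, HSPB3, HSPB6, HSPB7 and HSPB9. A floor of 3 counts, used in place of 0 in ratios, equals 0.546 CPM with Flag and 0.879 CPM with IgG. It is a chosen value and not a maximum for such genes.

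Among the 50, Flag enrichment was called for 20 and depletion for 0, against 28.7% enriched and 1.32% depleted among all 10811 genes that entered. The members' median ratio was 2.59 and that of all genes 1.93. Without the genes matched by letters alone, 19 of 48 were enriched. Of 29 DNAJ members that entered, 14 were enriched, with a median of 2.90, and of 21 HSP members 6 were enriched, with a median of 1.38 (5 of 19 without the letter matches). TMM scaling takes the bulk of genes as unchanged between libraries. With it the enriched counts were 5 of 29 (17.2%) and 4 of 21 (19.0%), against 12.0% of all genes. Without the letter matches the HSP count was 3 of 19 (15.8%). The order of the shares with TMM scaling thus depended on the letter matches, and the difference was not tested. The ratio lay below 1 for 8 members, against 22.0% of all genes, and these included all 3 HSP90 genes and both small heat shock genes that entered. TMM scaling lowers every log2 ratio by 0.78, and with it 9 members were enriched and 4 depleted, against 12.0% and 6.12% of all genes. The 4 were HSP90AA1, HSP90AB1, HSP90B1 and HSPB1. Median-of-ratios scaling gave 9 and 4 as well, against 11.7% and 6.24%. By a TPM ratio beyond 2-fold, with 0.1 added, 27 members were enriched and 0 depleted, against 44.2% and 6.59% of all genes. Intervals wholly beyond 4-fold were found for 4 members above and 0 below, against 8.55% and 0.222%, and beyond 1.5-fold for 26 above and 1 below, against 40.0% and 2.76%. With library totals that left out mitochondrially encoded genes and the 10 most abundant genes of each library, 15 members were enriched and 0 depleted, against 20.3% and 2.48%. With a 99% interval 17 of the 50 were enriched and 0 depleted (23.5% and 1.06% of all genes). Other filters changed the number of members that entered. With a minimum of 100 counts, which 10 of the 50 did not meet, the numbers were 18 and 0 (37.9% and 1.62%). With no minimum, which let in the 12 detected with fewer counts, they were 20 and 0 (18.7% and 1.26%). Whole counts alone, which left out 9 of the 50, gave 18 and 0 (29.2% and 1.16%). Overlapping genes summed, with HSPA1A and HSPA1B as 1 gene, gave 21 and 0 (28.7% and 1.32%). TPM with 1 added gave 26 and 0 of the 50 (37.7% and 4.96%).

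**Figure D1:**
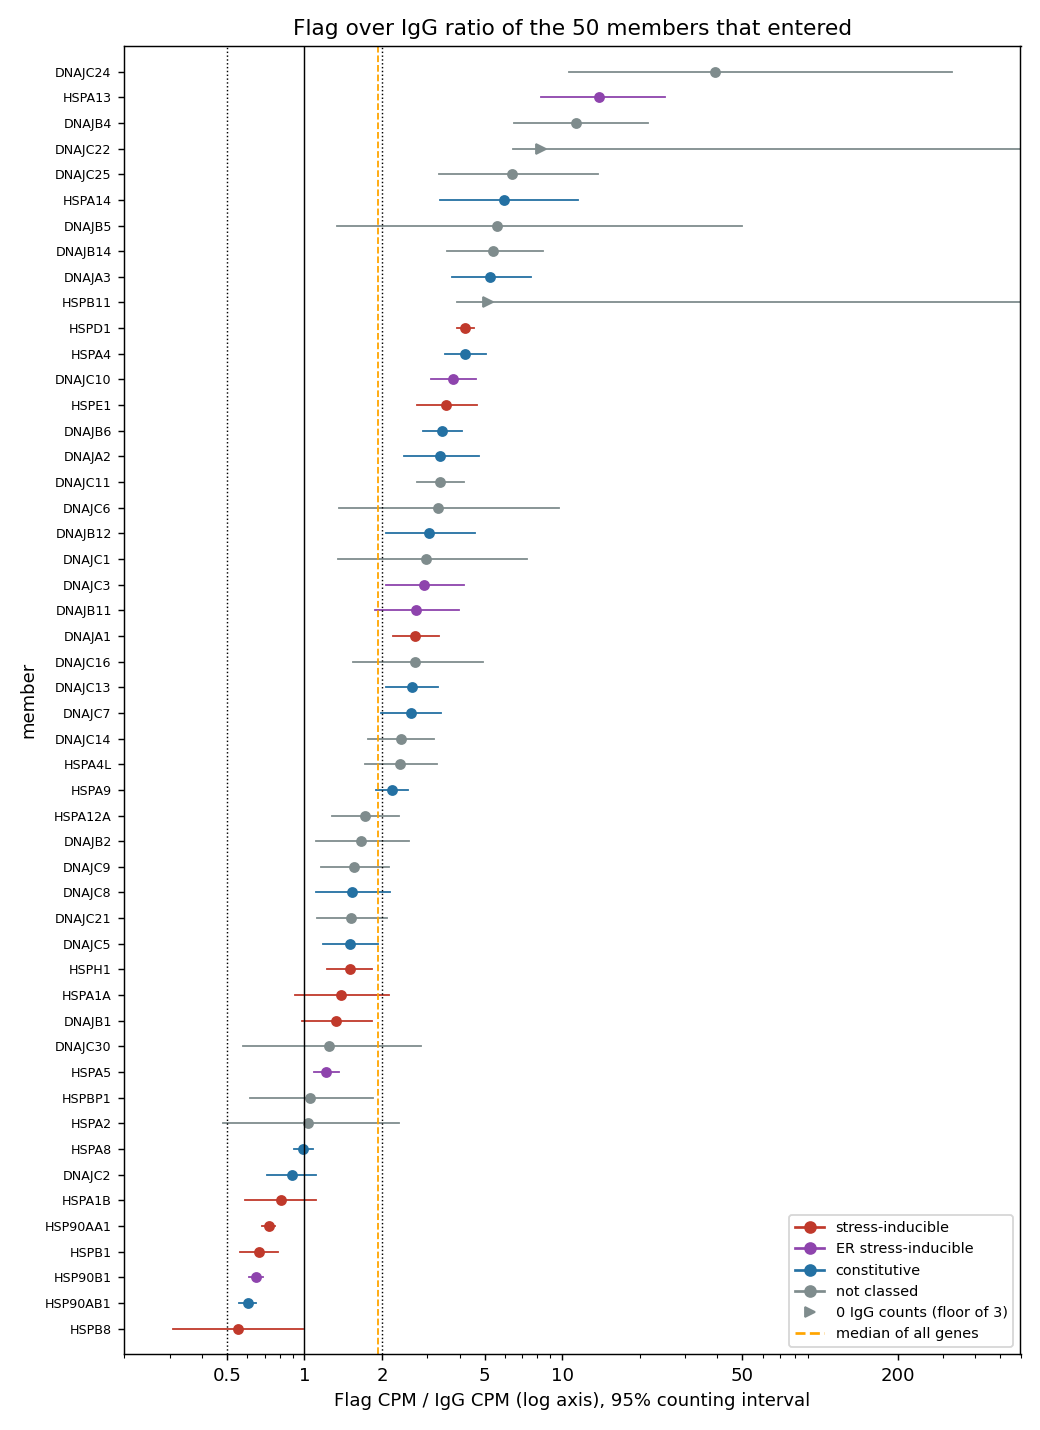
Ratio of Flag to IgG CPM for the 50 members that entered, on a log axis, with 95% counting intervals as lines and colours for the lists. Dotted lines mark 0.5 and 2 and the dashed line the median of all genes at 1.93. Triangles mark the members with 0 IgG counts, whose ratio uses a floor of 3 IgG counts and whose interval has no upper end. The 3 HSP90 genes sit between 0.602 and 0.725 with narrow intervals, while DNAJC24, HSPA13 and DNAJB4 lie above 10.

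The HSP90 genes were abundant and kept to a narrow range of ratios. HSP90AA1 had 2318 IgG and 2709 Flag counts, a ratio of 0.725 (0.686 to 0.767). HSP90AB1 had 1490 and 1444 counts, a ratio of 0.602 (0.559 to 0.647). HSP90B1, which encodes the ER paralogue GRP94, had 1771 and 1849 counts, a ratio of 0.648 (0.607 to 0.692). All 3 intervals lay below 1, as did those of 8.99% of all genes, and none reached the call with total counts. With TMM scaling the ratios were 0.423, 0.351 and 0.378, and all 3 were depleted, against 6.12% of all genes. Among protein-coding genes with 2000 or more counts over both libraries, as the HSP90 genes had, 32.2% were depleted with TMM scaling. The share of HSP90 genes in the members' own counts, which no scaling of the libraries alters, was 53.4% in the IgG library and 25% in the Flag library. Between the cytosolic forms, the ratio of HSP90AA1 was 1.21 times that of HSP90AB1 (1.10 to 1.32). Both held the motif of 3 units printed above.

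HSP70 genes covered a wider span. HSPA8, which encodes the constitutive cytosolic HSC70, had 899 IgG and 1432 Flag counts, a ratio of 0.989 (0.909 to 1.08). HSPA1A and HSPA1B, the heat-inducible HSP70 genes, are near-identical copies with fractional counts, so their separate ratios of 1.38 and 0.808 are uncertain. Their sum had 108 and 173 counts, a ratio of 0.994 (0.777 to 1.28). The inducible pair and HSPA8 thus had nearly the same ratio, 1.01 times apart with an interval of 0.775 to 1.31. HSPA6, the strictly inducible HSP70B′ gene, had 3 and 4 counts and did not enter. HSPA2 had a ratio of 1.03 (0.482 to 2.32) from 12 and 20 counts, and HSPA12A, of a distant branch, 1.71 (1.28 to 2.33).

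Other HSP70 members were higher. HSPA13, which encodes the ER-associated protein STCH, had 15 IgG and 335 Flag counts, a ratio of 13.9 (8.28 to 25), the highest of the HSP genes. HSPA14, which encodes a ribosome-associated HSP70, had 13 and 125 counts, a ratio of 5.97 (3.37 to 11.5). HSPA4, an HSP110-type exchange factor, had 139 and 939 counts and was 4.19-fold higher (3.51 to 5.05). These 3 were enriched, and HSPA14 lost its call with TMM scaling. HSPH1, the heat-inducible HSP110, stood apart from HSPA4, with 144 and 347 counts and a ratio of 1.5 (1.23 to 1.83). The ratio of HSPA4 was 2.80 times that of HSPH1 (2.13 to 3.68), and 4.24 times that of HSPA8 (3.47 to 5.2). HSPA4L, of the same type, lay between them at 2.35 (1.72 to 3.26). The ER chaperone gene HSPA5, which encodes BiP, had 502 and 984 counts, a ratio of 1.22 (1.09 to 1.36), 1.88 times that of HSP90B1 (1.65 to 2.13).

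The mitochondrial chaperonin genes came down together. HSPD1, which encodes HSP60, had 714 IgG and 4846 Flag counts and was 4.21-fold higher (3.89 to 4.56). HSPE1, which encodes its lid HSP10, had 68 and 388 counts and was 3.54-fold higher (2.73 to 4.65). Their ratios differed by a factor of 1.19, with an interval of 0.895 to 1.56 that includes 1. HSPD1 and HSPE1 are neighbours on opposite strands in RefSeq. The promoter entry searched for HSPE1 held no match of 3 units. It began at base 197500129, and the stretch printed for HSPD1 ended before it, at 197500090. The search for HSPE1 thus did not cover that stretch. Both were enriched, HSPE1 not with TMM scaling (2.07, 1.59 to 2.71). HSPA9, the mitochondrial HSP70 mortalin, had 256 and 901 counts and a ratio of 2.18 (1.90 to 2.52), and the ratio of HSPD1 was 1.93 times larger (1.64 to 2.27). DNAJA3, the mitochondrial partner of HSPA9, had 38 and 322 counts and was 5.26-fold higher (3.75 to 7.57). DNAJC11, of the mitochondrial membranes, was 3.36-fold higher (2.74 to 4.15). HSPD1 alone made up 20.2% of the members' Flag counts and 6.83% of their IgG counts.

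Small heat shock genes had low ratios or low counts. HSPB1, which encodes HSP27, had 268 IgG and 288 Flag counts, a ratio of 0.667 (0.563 to 0.791), and HSPB8 had 28 and 25, a ratio of 0.554 (0.310 to 0.986). Neither was called with total counts. Of the members matched by letters alone, the nucleotide exchange factor gene HSPBP1 had a ratio of 1.05 (0.613 to 1.85), and HSPBAP1, with 6 and 3 counts, did not enter. HSPB11, which encodes the intraflagellar transport protein IFT25, had 0 IgG and 25 Flag counts. Its ratio was 5.17 with the IgG count set to a floor of 3, and the interval had a lower bound of 3.90.

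Levels can be compared between genes on the deposited TPM scale, which divides by length. HSP90AA1 led the members in the IgG library with 308 TPM, followed by HSP90B1 with 284, HSP90AB1 with 181, HSPA8 with 152, HSPD1 with 121 and HSPB1 with 112. In the Flag library HSPD1 led with 500.4 TPM, before HSP90AA1 with 219, HSP90B1 with 184, DNAJB6 with 149, HSPA8 with 145 and HSPE1 with 125. HSPD1 thus came after HSP90AA1, HSP90B1, HSP90AB1 and HSPA8 in the IgG order and before all of them in the Flag order. HSPB1 had 70.7 TPM in the Flag library. TPM carries no interval, so neighbours in these orders were not compared. Summed, the 3 HSP90 genes had 773 TPM in the IgG and 512 TPM in the Flag library, and HSPD1 with HSPE1 154 and 626 TPM.

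**Figure D2:**
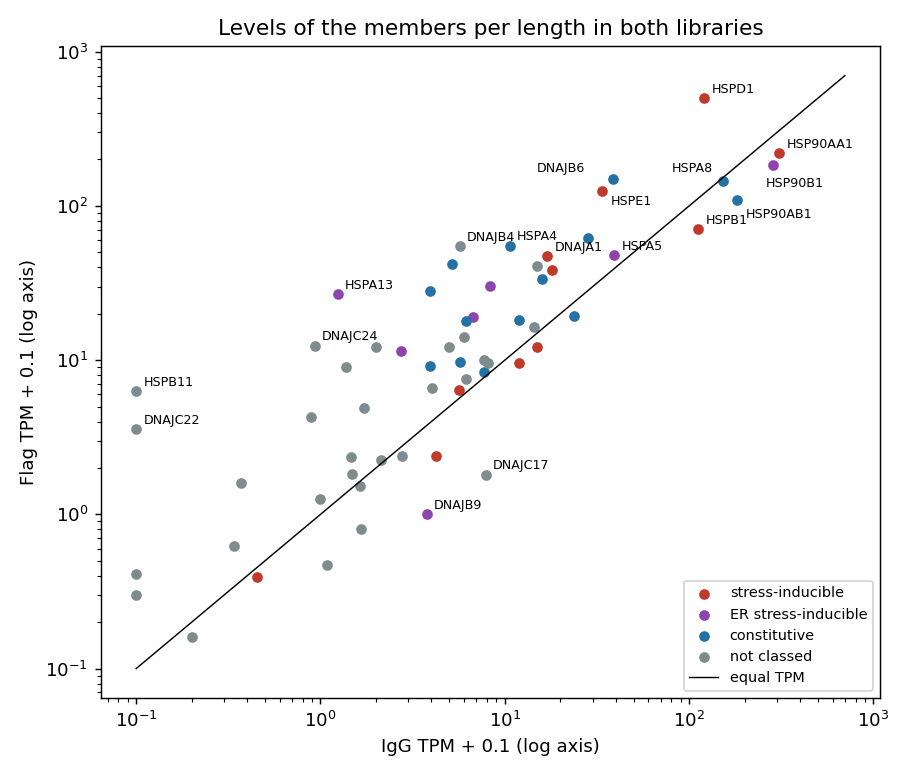
Deposited TPM of the members detected in at least 1 library, IgG on the horizontal and Flag on the vertical axis, both with 0.1 added and on log axes, coloured by list. HSP90AA1, HSP90AB1, HSP90B1 and HSPB1 lie below the line of equal TPM, HSPA8 close to it at 152 and 145, and HSPD1 and HSPE1 above it.

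Among type A co-chaperones, the general partners of HSP70, all 3 that entered were enriched, against 28.7% of all genes. DNAJA1, the heat-inducible form, had 118 IgG and 512 Flag counts and was 2.69-fold higher (2.20 to 3.32). DNAJA2, its constitutive counterpart, had 45 and 244 counts and was 3.37-fold higher (2.44 to 4.74). Their ratios differed by a factor of 1.25 with an interval of 0.848 to 1.86, so no difference between them was seen beyond counting error. The ratio of DNAJA1 was 2.72 times that of HSPA8, the HSP70 gene with which its product works (2.19 to 3.41). DNAJA3 is given above, and DNAJA4 had 1 count in each library. With TMM scaling DNAJA3 kept its call and DNAJA1 and DNAJA2 lost theirs, against 12.0% enriched among all genes.

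Type B co-chaperones differed more. DNAJB1, the heat-inducible HSP40, had 63 IgG and 135 Flag counts, a ratio of 1.33 (0.979 to 1.82). DNAJB6, which suppresses protein aggregation, had 157 and 865 counts and was 3.42-fold higher (2.88 to 4.08), with fractional counts. The ratio of DNAJB6 was 2.57 times that of DNAJB1 (1.79 to 3.67). DNAJB4, a close relative of DNAJB1, had 13 and 237 counts and was 11.3-fold higher (6.49 to 21.6). The ER membrane co-chaperone genes DNAJB12 (3.05, 2.07 to 4.6) and DNAJB14 (5.37, 3.57 to 8.40) were enriched. DNAJB11, of the ER lumen, had a ratio of 2.70 (1.88 to 3.97), short of the call, as were DNAJB2 (1.66) and DNAJB5, with 2 and 18 counts. DNAJB9, an ER stress gene, had 5 and 2 counts and did not enter. With TMM scaling DNAJB4 and DNAJB14 kept their calls and DNAJB6 and DNAJB12 lost theirs.

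Of 18 type C co-chaperones that entered, 7 were enriched (38.9%), against 28.7% of all genes. DNAJC24, which encodes the diphthamide synthesis protein DPH4, had 2 IgG and 126 Flag counts, a ratio of 39.1 with a wide interval of 10.6 to 326.4. DNAJC22 had 0 and 40 counts, a ratio of 8.28 with the IgG count set to a floor of 3, and the interval had a lower bound of 6.43. DNAJC25 had 10 and 103 counts and a ratio of 6.39 (3.34 to 13.7), with fractional counts. The ER reductase gene DNAJC10 had 117 and 711 counts and was 3.77-fold higher (3.10 to 4.63). DNAJC3, which encodes the PERK and PKR inhibitor p58IPK, had 42 and 196 counts and was 2.90-fold higher (2.07 to 4.15). DNAJC13, of endosomes, was 2.61-fold higher (2.08 to 3.30), and DNAJC11 is given above. DNAJC13 and DNAJC3 lay just inside the call with lower bounds of 2.08 and 2.07, and DNAJC7, a bridge between HSP70 and HSP90, just outside with 1.98. With TMM scaling DNAJC24 and DNAJC22 kept their calls and the other 5 lost theirs. This left 2 of 18 enriched (11.1%), against 12.0% of all genes.

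The type C members that were not called ranged down to DNAJC2. This gene, which encodes the ribosome-associated co-chaperone MPP11, had 147 and 211 counts and a ratio of 0.891 (0.718 to 1.11), with fractional counts. Its product works with HSPA14 at the ribosome, and the ratio of HSPA14 was 6.68 times that of DNAJC2 (3.59 to 13.4). DNAJC5, of synaptic and secretory vesicles, had a ratio of 1.5 (1.18 to 1.92), the splicing-associated DNAJC8 1.53 (1.11 to 2.15) and DNAJC21, of ribosome biogenesis, 1.52 (1.12 to 2.09). DNAJC9, a histone chaperone gene, had 62 and 156 counts, a ratio of 1.56 (1.16 to 2.13). Its antisense partner DNAJC9-AS1 cannot be told apart from it without a stated strand setting, and the sum of both had 62 and 363 counts, a ratio of 3.63 (2.77 to 4.84). The remaining ratios were 2.36 for DNAJC14, 2.95 for DNAJC1, 3.31 for DNAJC6, 2.68 for DNAJC16 and 1.24 for DNAJC30. DNAJC17, with 13 and 6 counts, did not enter.

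The stress-inducible and constitutive lists were then set against each other. Of 10 stress-inducible genes that entered, 3 were enriched, namely HSPD1, HSPE1 and DNAJA1, and 0 depleted. Of 14 constitutive genes, 7 were enriched, namely HSPA4, HSPA14, DNAJA2, DNAJA3, DNAJB6, DNAJB12 and DNAJC13, and 0 depleted. Both counts stand against 28.7% of all genes enriched. With TMM scaling, 1 stress-inducible gene was enriched (HSPD1) and 2 depleted (HSP90AA1 and HSPB1), and 2 constitutive genes were enriched (HSPA4 and DNAJA3) and 1 depleted (HSP90AB1), against 12.0% and 6.12% of all genes. The median log2 ratio was 0.44 for the stress-inducible and 1.38 for the constitutive list, beside 0.95 for all genes, a difference of -0.94. The difference of the means was -0.71, in the same direction. The lists overlapped, with 3 of 10 stress-inducible genes above the constitutive median and 11 of 14 constitutive genes above the stress-inducible median. HSP90AB1, DNAJC2 and HSPA8 were the 3 lowest constitutive genes. The difference has no test, and the genes of a list are not replicates.

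Summed counts ran the other way. The stress-inducible genes together had a ratio of 1.53 (1.47 to 1.59) and the constitutive genes 1.35 (1.30 to 1.41), and HSPD1 brought 4846 of the 9427 stress-inducible Flag counts. Without HSPD1 and HSPE1, the sum of the other 9 stress-inducible genes had a ratio of 0.853 (0.814 to 0.894), and without HSPA9 and DNAJA3 the other 12 constitutive genes had 1.24 (1.19 to 1.30). Leaving out these 4 mitochondrial genes, a choice made after their values were seen, put the difference of the median log2 ratios at -1.32. Of 6 ER stress-inducible genes that entered, 3 were enriched (HSPA13, DNAJC10 and DNAJC3) and 0 depleted, against 28.7% and 1.32% of all genes. The median log2 ratio of the 6 was 1.48. With TMM scaling HSPA13 alone was enriched and HSP90B1 depleted, against 12.0% and 6.12% of all genes. Within that list the abundant luminal chaperone genes HSP90B1 and HSPA5 had the lowest ratios, as HSP90AB1 had in the constitutive list.

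**Figure D3:**
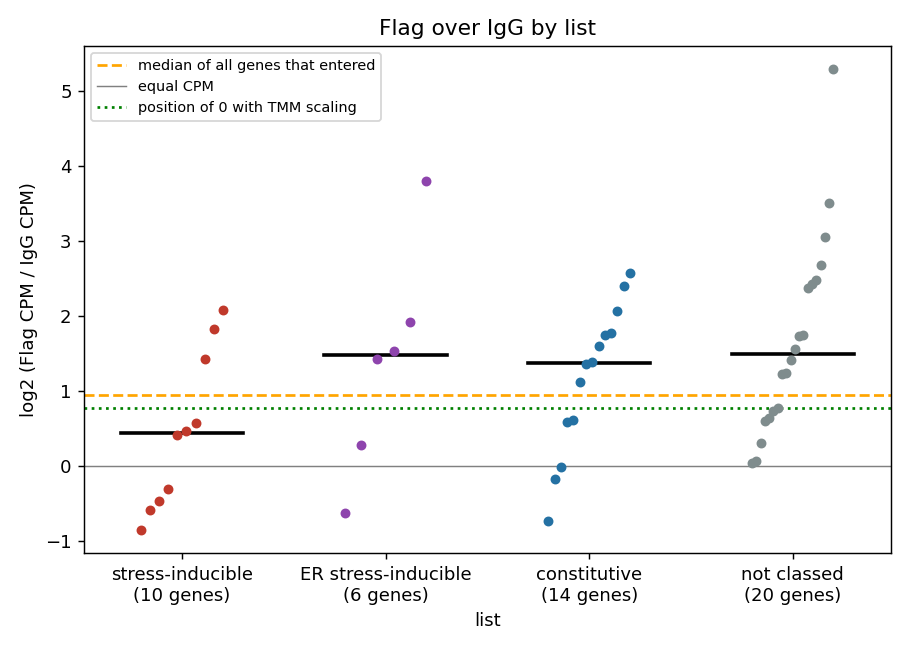
Log2 ratio of Flag to IgG CPM for each member that entered, by list, with the list's median as a black bar. The dashed line is the median of all genes at 0.95, and the dotted line marks where 0 lies with TMM scaling. The stress-inducible median of 0.44 lies below both lines, the constitutive median of 1.38 above both, and the points of the 2 lists overlap.

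Of 5 members with 2000 or more counts over both libraries, HSP90AA1, HSP90AB1, HSP90B1 and HSPA8 had ratios below 1 and HSPD1 did not. Among all 270 protein-coding genes of that abundance, 100 had a ratio below 1, and the median ratio of the 270 was 1.85. With total counts 1 of the 5 members was enriched and 0 depleted, against 126 and 57 of the 270. With TMM scaling 1 of the 5 was enriched and 3 depleted, against 87 and 87 of the 270. Of 8 members with 500 to under 2000 counts, 5 were enriched, with a median ratio of 3.01, against 585 of 1176 protein-coding genes, with a median of 2.37. With TMM scaling 1 of those 8 was enriched and 1 depleted, against 303 and 96 of the 1176 protein-coding genes. Across the 50 members the log2 ratio and the mean log2 CPM had a Spearman rho of -0.308, and across 10193 protein-coding genes -0.07. These are descriptions across genes, which share both libraries and are not independent replicates.

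Partners of the members were called at about the rate of all genes. Of 58 other chaperone genes, 55 entered, and their median ratio was 1.76. Enrichment was called for 14 (25.5%) and depletion for 0, against 28.7% and 1.32% of all genes. With TMM scaling 6 kept the call (HSBP1, PPID, PFDN1, PFDN6, CANX and PDIA3), and STUB1, CDC37, UNC45A and PFDN5 were depleted, against 12.0% and 6.12% of all genes. HSF1 itself had 97 IgG and 200 Flag counts, a ratio of 1.28 (0.999 to 1.65), while HSBP1, which encodes an HSF1-binding protein, had 32 and 515 counts and was 9.99-fold higher (6.99 to 14.8). HSF2, with 4 and 35 counts, had a ratio of 5.43 (1.94 to 21.0), short of the call. Among 12 HSP70 partners 4 were enriched, the BAG exchange factor genes BAG3 (3.28-fold) and BAG4 (5.79-fold), the mitochondrial exchange factor gene GRPEL1 (5.59-fold, 3.27 to 10.3) and the HSP70-interacting ST13 (3.13-fold), and all 4 lost the call with TMM scaling. At the low end were the ubiquitin ligase gene STUB1 (0.582) and BAG6 (1.00).

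Among 12 HSP90 partners, 2 were enriched, the cyclophilin gene PPID (10.9-fold, 5.14 to 27.7) and SUGT1 (4.17-fold), the latter not with TMM scaling. The kinase adaptor gene CDC37 (0.611, 0.521 to 0.716) and UNC45A (0.637) lay in the range of the HSP90 genes. STIP1, which joins HSP70 to HSP90, had a ratio of 0.816 (0.692 to 0.963). In the cytosolic chaperonin TRiC, whose subunits are needed in equal numbers, CCT4 (2.97-fold) and CCT6A (3.07-fold, 2.66 to 3.56) were enriched, while the other 6 subunit genes had ratios from 0.897 (CCT3) to 1.2 (CCT5). Neither CCT4 nor CCT6A was called with TMM scaling. Prefoldin subunit genes ranged from 0.491 (PFDN5, 0.336 to 0.715) to 8.71 (PFDN6, 5.89 to 13.4), and PFDN1 was 7.15-fold higher. Of 9 ER folding genes that entered, CANX, which encodes the lectin chaperone calnexin, was 7.22-fold higher (6.51 to 8.03), PDIA3 4.28-fold and XBP1 3.41-fold, XBP1 not with TMM scaling. Calreticulin, CALR, the soluble relative of calnexin, had a ratio of 0.805 (0.731 to 0.886). Among J-domain genes with other symbols, GAK (1.18) and SEC63 (1.94) were not called and HSCB did not enter. SERPINH1 (1.74) and CLPB (1.79) were not called, and CRYAB had 4 and 3 counts.

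**Figure D4:**
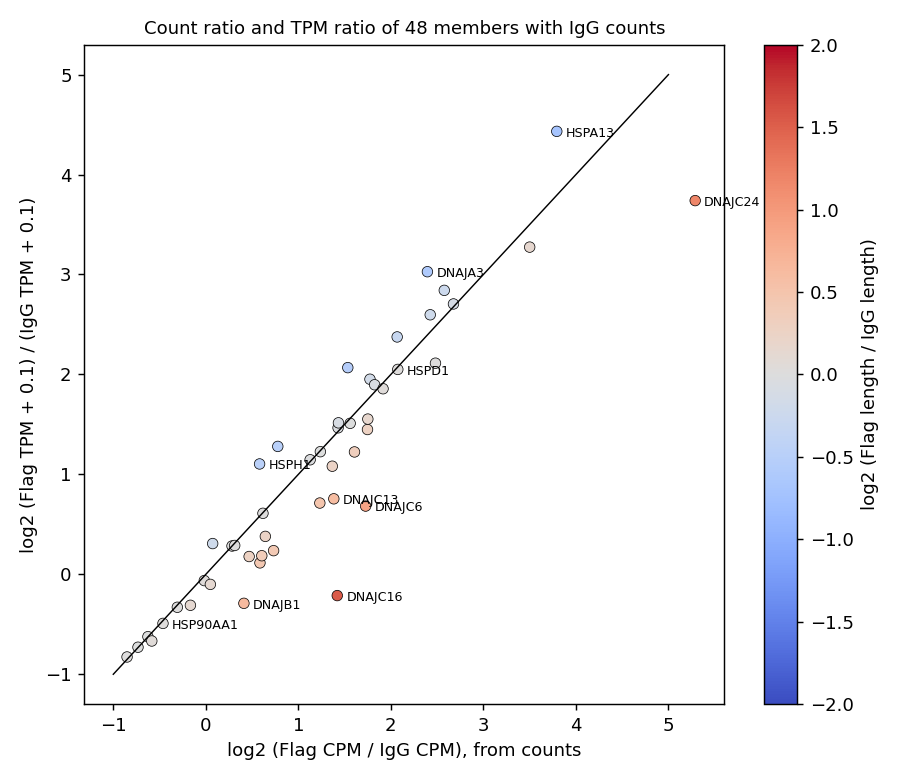
Log2 ratio from counts (horizontal axis) and from TPM with a pseudocount of 0.1 (vertical axis) for the 48 members with IgG counts, coloured by the log2 ratio of the gene length listed in the Flag library to that in the IgG library, with a line of equal values. HSP90AA1 and HSPD1 lie on the line, DNAJC16 and DNAJB1 below it with longer Flag lengths, and HSPA13 and HSPH1 above it with shorter ones.

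The tables list a gene length for each library, averaged over its transcripts, and this length differed for several members, so that counts and TPM disagreed. DNAJC16 had a length of 1929 bases in the IgG and 5614 in the Flag library, and its ratio was 2.68 from counts and 0.863 from TPM. DNAJB1 had lengths of 1418 and 2187 bases and ratios of 1.33 and 0.818. DNAJC24, with the highest count ratio of the members, had lengths of 893 and 2028 bases and ratios of 39.1 and 13.4. HSPA13, with 3986 and 2448 bases, had ratios of 13.9 and 21.6, and HSPH1, with 2527 and 1810 bases, 1.5 and 2.15. HSP90AA1, HSP90AB1, HSP90B1, HSPA8 and HSPD1 differed in length by under 3%, and their TPM ratios of 0.711, 0.603, 0.649, 0.957 and 4.14 were close to the count ratios. Lengths that differed by more than 1.5-fold were found for 6 members with a longer and 2 with a shorter Flag length of the 50 (12% and 4%), against 15.8% and 8.63% of protein-coding genes. The transcripts behind a length were not analysed here.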

How the data were processed

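The labels name 3 samples, and the IgG and Flag libraries were used. Expected counts, estimated reads per gene, and TPM values are the authors' own, laid out like RSEM gene output per the file headers. Per the submitters' processing notes, RSEM, STAR, GRCh37 and hg19 were involved, with no version stated. The sources used here give neither strand setting nor annotation release. The other columns used, gene lengths in bases averaged over transcripts, were deposited as well. Expected counts were rounded and scaled to library totals. Genes with at least 20 counts entered, and ratios were given exact 95% intervals (scipy 1.17.1). A count of 0 was set to a floor of 3 counts, so such ratios depend on the floor, in medians too. Their intervals were computed without the floor. Ratios of 2 genes' ratios, for 13 pairs chosen after their values were seen, have exact conditional 95% intervals. TMM factors came from edgeR 4.0.16 and median-of-ratios factors from DESeq2 1.42.0, as scalings only. Fractional counts (over 0.01 from a whole number) were found for 9 members that entered. Named were all listed and called members and the ends of the partner groups. Members and lists were chosen with earlier results of these data known. Some genes of the marker and partner lists are not reported here.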

Additional observations from a re-analysis of the deposited data

How the results depend on the processing

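Scaling decided most calls. With TMM scaling 9 of 50 members were enriched and 4 depleted, against 12.0% and 6.12% of all genes. The members' median log2 ratio was 0.60, and 6 of 55 other chaperone genes were enriched. With median-of-ratios scaling these values were 9, 4, 0.58 and 6, against 11.7% enriched and 6.24% depleted among all genes. The 9 that kept the call with both scalings were DNAJA3, DNAJB4, DNAJB14, DNAJC22, DNAJC24, HSPA4, HSPA13, HSPB11 and HSPD1. At a 4-fold threshold 4 of 50 members and 5 of 55 other chaperone genes were enriched, against 8.55% of all genes. At a 1.5-fold threshold 1 of 50 members, HSP90AB1, was depleted, against 2.76% of all genes. These changes follow from the thresholds. TPM, called by the ratio alone, gave 27 enriched members against 44.2% of all genes, and DNAJC13 was not among them. A pseudocount of 1 gave 26, against 37.7% of all genes. The difference between stress-inducible and constitutive medians lay between -1.32 and -0.64 under all alternatives run, and scalings of the counts cannot move it. The value of -0.64 was for members with at least 500 counts, which left few genes. They were HSP90AA1, HSPB1, HSPD1 and DNAJA1 against HSP90AB1, HSPA8, HSPA9, HSPA4 and DNAJB6. Their log2 ratios ran from -0.58 to 2.07 in the stress-inducible and from -0.73 to 2.07 in the constitutive list. The other alternatives run on member counts gave 15 to 21 enriched and 0 depleted members. They were totals lacking mitochondrial genes and the 10 most abundant genes of each library, other filters, 0.5 counts added, a 99% interval, whole counts only and overlapping genes summed. The shares of all genes called lay between 18.7% and 37.9% enriched and between 1.06% and 2.48% depleted. The number of members that entered differed between the filters. No paired analysis was possible because each group has 1 library.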
